A study of Homo sapiens with 24 samples.

Results

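HOX cluster genes were examined in 4 human bladder cancer cell lines with and without mitomycin C (MMC). The members are the 39 protein-coding genes of the count table whose symbol is HOXA, HOXB, HOXC or HOXD followed by a number, out of 58381 gene IDs and 19863 protein-coding genes. They comprise 11 HOXA, 10 HOXB, 9 HOXC and 9 HOXD genes. Their order along each cluster is given below by paralogue number, from 1 at the 3′ end of the cluster to 13 at the 5′ end.

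The study asked how the lines T24, 5637, TCC-SUP and CLS-439 change gene expression after MMC, a drug that crosslinks DNA and is used against bladder cancer. Each line was either given 75 µM MMC for 1 h, with RNA taken 15 h after the treatment, or left untreated (NT), giving 8 groups of 3 libraries numbered 1, 3 and 4 and 24 libraries in all. No genotype or further agent is given for any group, and each line stands for 1 tumour-derived culture. The series' design text calls the libraries biological replicates, but nothing says whether they came from separate cultures, so p-values measure the spread between these libraries only.

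HOX genes encode homeodomain transcription factors that give cells along the body axis their positional identity. Genes at the 3′ end of a cluster are switched on first and furthest forward in the embryo, and genes at the 5′ end later and further back, an order called collinearity. Polycomb complexes keep silent parts of a cluster closed, Trithorax complexes keep active parts open, and retinoic acid and CDX factors help to open them from the 3′ end. The HOX proteins bind DNA together with PBX and MEIS cofactors. Adult epithelia and cultured cells keep part of the pattern of the tissue they came from, and posterior members act in the development of the urogenital tract.

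All 39 members carry a homeobox, the 180 bases that encode the DNA-binding homeodomain, as found in the coding sequences of GENCODE release 29. HOXB9, HOXC9 and HOXD9 of paralogue group 9 are shown because genes of 3 clusters with closely alike homeoboxes had different orders of level across the lines. Letters are lower case where they equal HOXB9 and capital where they differ from it. Chromosome 17 holds HOXB9, chromosome 12 HOXC9 and chromosome 2 HOXD9.
HOXB9: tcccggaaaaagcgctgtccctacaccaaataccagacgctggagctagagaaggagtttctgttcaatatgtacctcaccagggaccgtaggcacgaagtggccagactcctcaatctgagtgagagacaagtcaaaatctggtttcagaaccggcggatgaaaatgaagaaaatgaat
HOXC9: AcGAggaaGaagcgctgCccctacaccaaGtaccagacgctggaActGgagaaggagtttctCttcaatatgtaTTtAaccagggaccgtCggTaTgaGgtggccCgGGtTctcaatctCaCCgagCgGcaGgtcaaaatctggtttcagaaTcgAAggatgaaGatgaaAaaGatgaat
HOXD9: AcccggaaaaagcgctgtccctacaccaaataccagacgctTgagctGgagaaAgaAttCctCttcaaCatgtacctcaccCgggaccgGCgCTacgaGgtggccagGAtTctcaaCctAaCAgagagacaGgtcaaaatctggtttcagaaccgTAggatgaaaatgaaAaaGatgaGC
HOXC9 and HOXD9 differ from HOXB9 at 32 and 28 of the 180 bases, an identity of 82.2% and 84.4%. The longest run of bases shared with HOXB9 is 20 bases for HOXC9 and 40 for HOXD9. Over the 42 pairs of members with the same paralogue number, identity of the homeobox ran from 69.4% to 90.6% with a median of 81.7%, against a median of 60.6% over the 699 other pairs. Identity over the other pairs ran from 47.8% to 91.1%. The longest run shared by any pair was 51 bases, reached by HOXB3 and HOXD3 and also among the pairs with different paralogue numbers. How reads that map to several places were counted is not given in the sources used here.

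The clusters lie on 4 chromosomes in GRCh38, with GENCODE 29 gene bounds. HOXA lies on the minus strand of chromosome 7. HOXB spans chr17:48528526-48729178 on the minus strand, HOXC chr12:53938765-54056030 on the plus strand and HOXD chr2:176092891-176190907 on the plus strand. Members overlap each other and other annotated genes. The genes that share exons with HOXC5 include another annotated ID with the symbol HOXC5. Exon bases shared with another gene of the same strand make up 80.5% of HOXD4, 62.2% of HOXD3, 59.9% of HOXC5, 31.0% of HOXA4 and 21.4% of HOXD11. Exons of antisense transcripts cover 62.5% of HOXA7, 58.1% of HOXD1, 39.3% of HOXA6 and 31.1% of HOXA11. The library kit keeps strand, but the sources used here do not give the strand setting of the counting. Reads of these genes and of their partners cannot be told apart, and their levels are uncertain.

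Library totals lay between 13791428 and 28821665 counted reads, and HOX members held 0.0299% to 0.0597% of them. Levels are given as FPKM, which are counts scaled by TMM library size and divided by the exon length of the gene, so that levels of different genes can be set side by side. A member was called detected at a group mean of 1 FPKM or more. In bulk RNA, fewer cells with a transcript and less of it per cell cannot be told apart. CLS-439 stood apart from the other lines. Mitochondrially encoded genes took 0.0238% to 0.0283% of its reads, against 3.21% to 7.40% in the others, and processed pseudogenes took 2.75% to 3.05%, against 0.143% to 0.228%. Of 7357 protein-coding genes at 10 CPM or more in all 18 libraries of the other lines, 61 were under 1 CPM in all 6 CLS-439 libraries. The same count was 7 of 7123 for T24, 2 of 7147 for 5637 and 21 of 7151 for TCC-SUP. Whether CLS-439 RNA fully matches human reference sequence was not tested, and every value of that line below carries this limit. The urothelial markers UPK1A, UPK3A and KRT20 were under 0.1 FPKM in the mean of the 6 libraries of each line, with UPK1A at 0.155 FPKM in MMC-treated TCC-SUP. Other uroplakins were present, with UPK3B at 5.15 FPKM with MMC and 8.05 FPKM without in CLS-439 and at 1.49 and 1.06 FPKM in TCC-SUP. UPK1B stood at 1.64 FPKM with MMC and 2.91 FPKM without in CLS-439. Of 19 urothelial and epithelial markers, 12 reached 1 FPKM in 5637, 10 in TCC-SUP, 8 in CLS-439 and 7 in T24. Of 9 fibroblast and mesenchymal markers, 8 reached 1 FPKM in TCC-SUP, with a summed level of 520 to 1350 FPKM, against 1 in T24 (7.8 to 16.9 FPKM), 2 in 5637 (89.6 to 146 FPKM) and 3 in CLS-439 (317 to 495 FPKM). Immune markers at 1 FPKM numbered 2 of 6 in TCC-SUP, 1 in CLS-439 and 0 in T24 and 5637. Endothelial markers at that level numbered 1 of 5 in CLS-439 and in TCC-SUP, against 0 in T24 and 5637.

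Without treatment the 4 lines shared a broadly transcribed HOXB cluster and differed in how much of HOXA, HOXC and HOXD was transcribed. T24 had 26 detected members, 5637 had 21, TCC-SUP had 29 and CLS-439 had 20. In HOXB, 9, 8, 9 and 9 of 10 genes were detected in T24, 5637, TCC-SUP and CLS-439. HOXC ran from 7 of 9 genes in TCC-SUP, through 4 of 9 in T24 and in CLS-439, to 0 of 9 in 5637. In HOXA, 8 of 11 genes were detected in T24 and in 5637 and 9 of 11 in TCC-SUP, against 2 of 11 in CLS-439. Detected in all 4 lines were 11 members, namely HOXA10, HOXB3 to HOXB9, HOXB13, HOXD9 and HOXD10. HOXA2, HOXB1, HOXC5, HOXD3 and HOXD12 were detected in none, and 23 members were detected in 1 to 3 lines. Exon bases shared with other genes of the strand make up 59.9% of HOXC5 and 62.2% of HOXD3, so their place here is uncertain. In HOXD, 5 of 9 genes were detected in T24, in 5637 and in CLS-439 and 4 in TCC-SUP, but not the same genes.

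**Figure D1:**
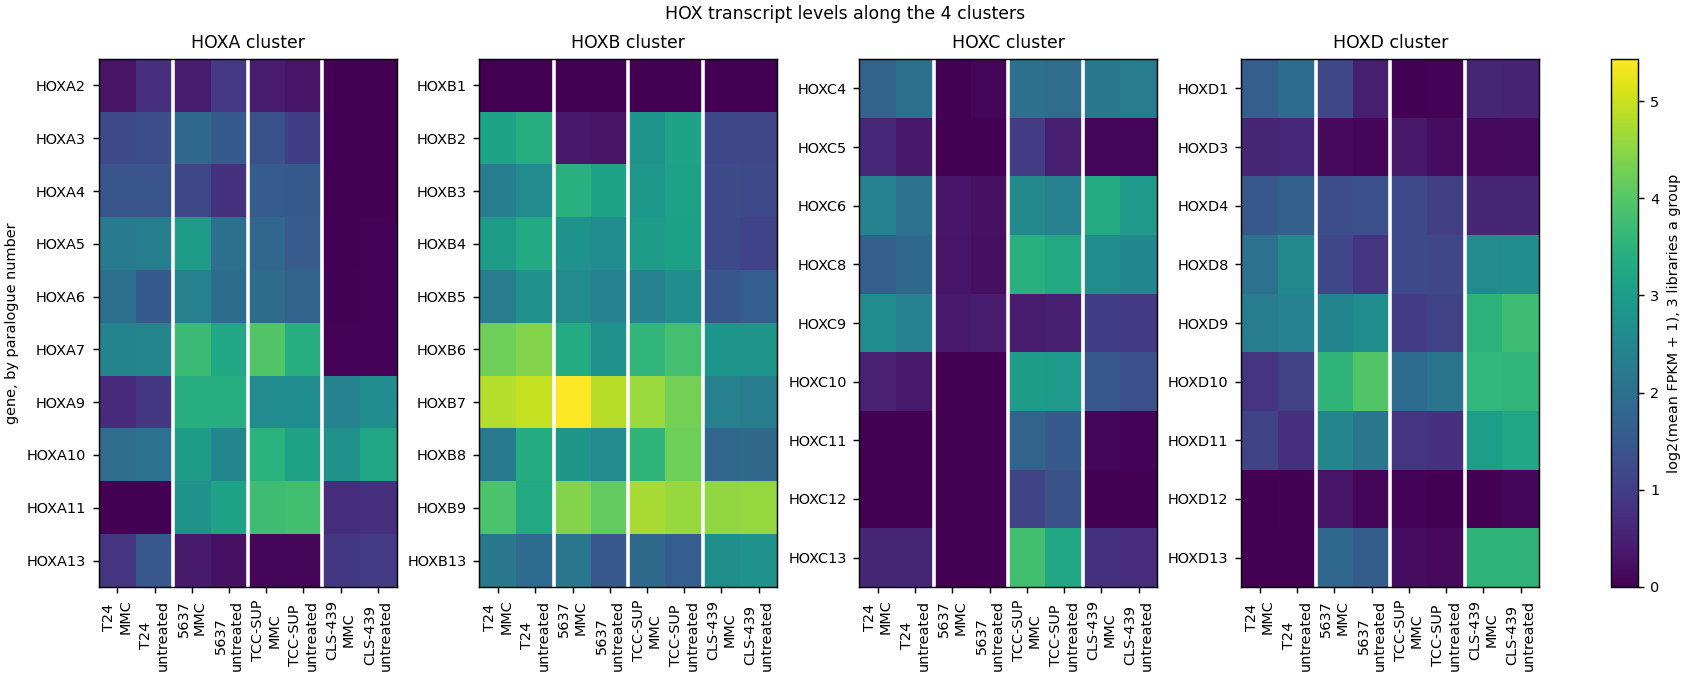
Mean level of HOX genes, as log2 of FPKM plus 1 over 3 libraries a group, in cluster order with the 3′ end at the top and paralogue number 13 at the bottom, with the MMC group of each line left of its untreated group. HOXB is filled in all 4 lines, HOXC is dark in 5637, the upper part of HOXA is dark in CLS-439, and the lower part of HOXD is bright in CLS-439 and 5637.

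In the HOXA cluster the boundary between silent and transcribed genes fell at different places. CLS-439 had HOXA2 to HOXA7 low and HOXA9 and HOXA10 high. HOXA2, HOXA3 and HOXA4 had 0 reads in its 3 untreated libraries, which allows up to 0.0198, 0.0113 and 0.0279 FPKM (3 counts over the group, for counting error only). HOXA7, a trunk-level member, stood at 0.0334 ± 0.0107 FPKM in untreated CLS-439, against 4.58 FPKM in T24, 8.47 FPKM in 5637 and 9.49 FPKM in TCC-SUP (n = 3 each). Its neighbour HOXA9, which acts in blood progenitors and leukaemia, stood at 5.7, 4.95 and 5.32 FPKM in the untreated CLS-439 libraries. HOXA10, a factor of uterine development, was at 9.01, 7.7 and 7.89 FPKM there.

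T24 showed a gap further along HOXA. HOXA11, which acts with its paralogues in kidney and limb development in the mouse, had 0.0168, 0 and 0 FPKM in the untreated T24 libraries. The same gene had 8.48, 7.54 and 7.59 FPKM in 5637, and 12.9, 12.6 and 12.9 FPKM in TCC-SUP. CLS-439 lay between them at 0.804, 0.614 and 0.647 FPKM. HOXA13, a factor of the hindgut, bladder and distal limb, had the opposite order, with 2.19, 1.6 and 1.59 FPKM in T24, against group means of 0.185, 0.0591 and 0.927 FPKM in 5637, TCC-SUP and CLS-439. Its log2 difference between T24 and the mean of the other lines was 3.04 (SE 0.26, adjusted p = 4.68e-10). HOXA9 was lower in T24 than in the others by a log2 difference of -2.91 (SE 0.24, adjusted p = 1.31e-10) and HOXA10 by -1.09 (SE 0.13, adjusted p = 2.03e-07).

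HOXB held the highest member of each line. This was HOXB7 in T24 and in 5637 and HOXB9 in TCC-SUP and in CLS-439. HOXB7, a homeobox factor much studied in carcinoma, stood at 32.7, 30.5 and 26.4 FPKM in untreated T24, 28.3, 28.3 and 26.7 FPKM in 5637, 17.2, 19.9 and 18.7 FPKM in TCC-SUP and 3.98, 4.29 and 3.54 FPKM in CLS-439. All CLS-439 libraries were below all libraries of the other lines, with a log2 difference of -2.66 (SE 0.14, adjusted p = 1.15e-14). HOXB9, a thoracic-level factor, was lowest in T24, at 10.4, 9.19 and 7.12 FPKM, against 18.1, 15.1 and 16.4 FPKM in 5637, 23.4, 22.9 and 22.7 FPKM in TCC-SUP and 23.9, 22.1 and 21.9 FPKM in CLS-439. Its difference between T24 and the others was -1.20 on the log2 scale (SE 0.16, adjusted p = 5.32e-07). HOXB9 in 5637 did not pass the test against the others (log2 difference -0.02, SE 0.15, adjusted p = 1).

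Other HOXB genes separated single lines. HOXB2, a factor of hindbrain identity, had 0.283, 0.165 and 0.216 FPKM in untreated 5637, while its means were 9.51 FPKM in T24, 7.72 FPKM in TCC-SUP and 1.22 FPKM in CLS-439. Its log2 difference for 5637 was -4.33 (SE 0.29, adjusted p = 1.9e-12), although HOXB3 on its 5′ side was at 7.85 FPKM in the same cells. HOXB6 was highest in T24, at 23.8, 20.1 and 17.8 FPKM (log2 difference 1.41, SE 0.15, adjusted p = 9.93e-09). HOXB8, known for its role in myeloid progenitors, was highest in TCC-SUP, at 14.9, 23.2 and 15.7 FPKM (log2 difference 1.83, SE 0.20, adjusted p = 1.45e-08). HOXB13, a prostate lineage factor that lies apart from the rest of the cluster, was highest in CLS-439, at 6.15, 5.59 and 5.88 FPKM, against means of 1.85 to 2.74 FPKM in the others (log2 difference 1.42, SE 0.16, adjusted p = 2.37e-08). HOXB1, the 3′ end of the cluster, had 0 reads in the untreated libraries of all 4 lines, which allows up to 0.0163 FPKM in T24 and up to 0.0197 FPKM in CLS-439.

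The HOXC cluster went from silent in 5637 to transcribed up to its 5′ end in TCC-SUP. HOXC5, HOXC10, HOXC11, HOXC12 and HOXC13 had 0 reads in untreated 5637, with upper limits of 0.0145 to 0.0267 FPKM, and the highest HOXC gene of that line was HOXC9 at 0.328 FPKM. HOXC13, a hair follicle and nail factor, had 8.87, 7.64 and 9.1 FPKM in untreated TCC-SUP. T24 had 0.484 FPKM of it and CLS-439 0.608 FPKM. HOXC10, which acts at hindlimb level in the mouse, averaged 6.71 FPKM in TCC-SUP and 1.51 FPKM in CLS-439, against 0.303 FPKM in T24. HOXC11 averaged 1.92 FPKM and HOXC12 averaged 1.55 FPKM in TCC-SUP, while neither had a read in untreated T24 or 5637.

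Within TCC-SUP the transcribed HOXC genes were not contiguous. HOXC8, a thoracic-level factor, averaged 8.88 FPKM and HOXC10 averaged 6.71 FPKM, whereas HOXC9 between them had 0.462, 0.202 and 0.538 FPKM. HOXC9 was highest in T24, at 4.52, 4.65 and 3.75 FPKM (log2 difference 3.13, SE 0.19, adjusted p = 4.11e-13). In CLS-439 the 3′ part of the cluster led, with HOXC6 at 6.54 FPKM, HOXC8 at 4.77 FPKM and HOXC4 at 3.93 FPKM, although HOXC5 was at 0.0509 FPKM. HOXC9 itself was at 0.887 FPKM there and did not pass the test against the other lines (log2 difference 0.09, SE 0.22, adjusted p = 0.731).

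The genes at the opposite ends of the HOXD cluster were highest in different lines. HOXD13, a digit and genital tubercle factor, was at 11.2, 10.4 and 9.89 FPKM in untreated CLS-439 and at 2.06, 2.26 and 1.81 FPKM in 5637. It had 0, 0.0204 and 0.0168 FPKM in T24 and a mean of 0.106 FPKM in TCC-SUP. HOXD1, at the other end of the cluster and known from sensory neurons of the mouse, had the highest level in T24, at 2.59, 3.03 and 2.6 FPKM, against means of 0.365 FPKM in 5637, 0.0316 FPKM in TCC-SUP and 0.43 FPKM in CLS-439. The 4 untreated lines differed in both genes (F test over the 4 lines, adjusted p = 2.32e-17 for HOXD13 and 2.96e-13 for HOXD1).

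HOXD9 to HOXD11 each had their own order of lines. HOXD9 averaged 12.4 FPKM in CLS-439, 5.25 FPKM in 5637, 4.29 FPKM in T24 and 1.06 FPKM in TCC-SUP. The log2 difference for CLS-439 was 2.11 (SE 0.13, adjusted p = 9.87e-14), while that for T24 was 0.06 (SE 0.14, adjusted p = 0.794). HOXD10, which acts in hindlimb motor neurons in the mouse, was highest in 5637, at 13.7, 13.9 and 15.8 FPKM. CLS-439 followed with 10.3, 11.1 and 11.4 FPKM, TCC-SUP had 3.44, 3.15 and 3.23 FPKM, and T24 had 0.993, 1.19 and 1.08 FPKM. Only the T24 libraries fell near or under 1 FPKM. HOXD11 averaged 8.53 FPKM in CLS-439 and 3.4 FPKM in 5637, against 0.689 FPKM in T24 and 0.701 FPKM in TCC-SUP. HOXD12, between HOXD11 and HOXD13, was under 1 FPKM in all 24 libraries. HOXD3 was too, although both of its neighbours HOXD1 and HOXD4 were detected in T24. Exon bases shared with another gene of the same strand make up 62.2% of HOXD3 and 80.5% of HOXD4, so both levels are uncertain.

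**Figure D2:**
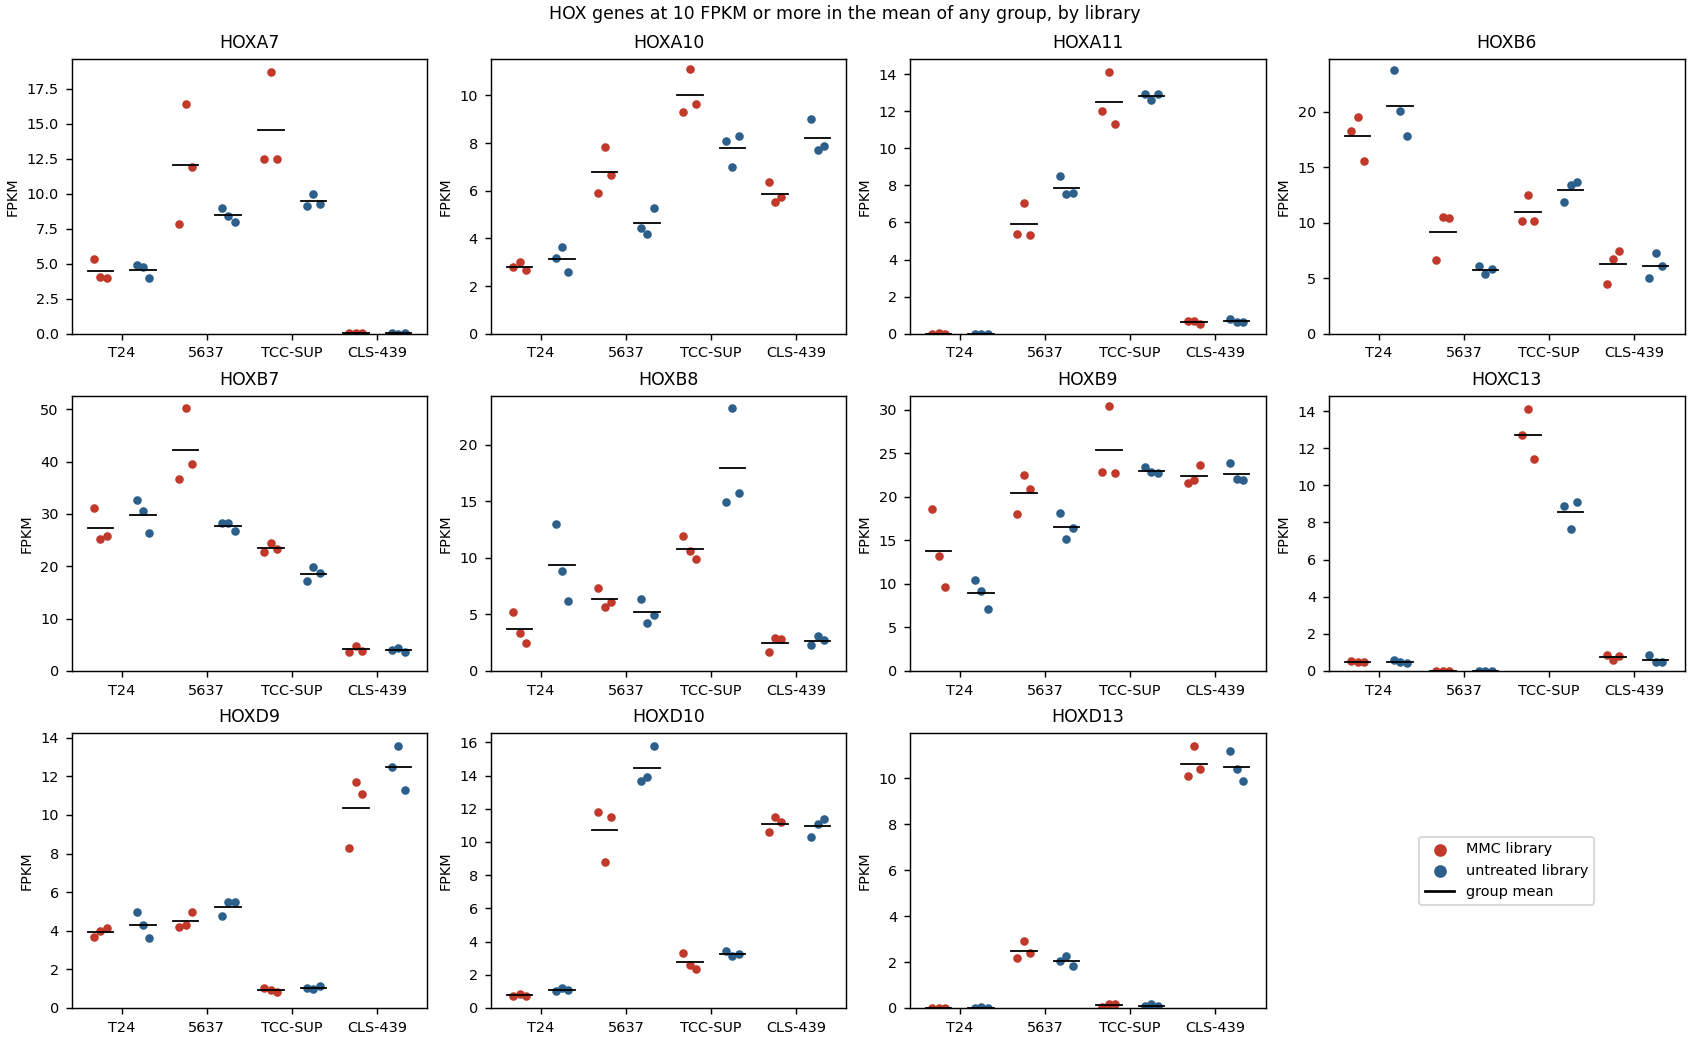
Level in FPKM of each library for the 11 HOX genes that reached 10 FPKM in the mean of any group, with MMC libraries left of untreated ones in each line and a bar at each group mean. HOXA11 and HOXD13 are near 0 in T24, HOXC13 is high in TCC-SUP alone among the 4 lines, and HOXB8 is lower after MMC in T24 and TCC-SUP.

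HOXD11 and HOXD13 were both highest in CLS-439 and next highest in 5637, so the 250 bases before their RefSeq starts are printed (GRCh38.p14, plus strand, no annotated exon in either window). CG dinucleotides are in capitals. HOXD11 is taken from chr2:176107030-176107279 and HOXD13 from chr2:176092471-176092720.
HOXD11: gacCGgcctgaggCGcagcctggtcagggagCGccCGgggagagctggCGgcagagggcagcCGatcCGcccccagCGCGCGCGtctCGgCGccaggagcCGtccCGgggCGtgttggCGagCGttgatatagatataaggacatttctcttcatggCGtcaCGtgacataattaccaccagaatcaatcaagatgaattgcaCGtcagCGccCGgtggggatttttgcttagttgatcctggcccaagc
HOXD13: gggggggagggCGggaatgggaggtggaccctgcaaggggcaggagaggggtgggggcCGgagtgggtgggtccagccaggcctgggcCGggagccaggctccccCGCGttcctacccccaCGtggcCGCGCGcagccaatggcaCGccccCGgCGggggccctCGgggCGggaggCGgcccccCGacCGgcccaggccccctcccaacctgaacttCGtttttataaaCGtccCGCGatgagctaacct
These windows hold 23 and 21 CG dinucleotides. RefSeq windows of 300 bases, from 250 before to 50 after a start, were at hand for 20 of the 39 members. They held a median of 22.5 CG dinucleotides, from 4 in HOXD4 to 44 in HOXA13, against a median of 14 over all 35116 windows, of which 35.8% held at least as many as the members' median. The letters TGATNNAT, which resemble a joint site of HOX and PBX proteins, were present on either strand in 3 of the 20 windows (HOXD11, HOXA2 and HOXB1), against 7.4% of all windows. A match of these letters is a description of the window only.

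Summed over a cluster, HOXB took the largest share of HOX transcripts in T24, 5637 and TCC-SUP, and HOXD and HOXB took near-equal shares in CLS-439. The untreated HOXB sum was 101 ± 17.0 FPKM in T24, 74.8 ± 4.13 FPKM in 5637, 103 ± 9.0 FPKM in TCC-SUP and 47.0 ± 1.33 FPKM in CLS-439 (SD, n = 3 each). These sums made up 65.1%, 50.5%, 53.0% and 36.3% of all HOX FPKM in the line. HOXD made up 37.7 ± 0.499% in CLS-439, 18.9 ± 1.34% in 5637, 10.7 ± 0.614% in T24 and 3.92 ± 0.0728% in TCC-SUP. HOXC was 18.3% in TCC-SUP, 14.1% in CLS-439, 9.13% in T24 and 0.499% in 5637, and HOXA was 30.2% in 5637, 24.8% in TCC-SUP, 15.1% in T24 and 11.9% in CLS-439.

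Differences among the untreated lines were called for nearly all genes, HOX members included. The low-count filter kept 37 of the 39 members, without HOXB1 and HOXD12. All 37 were called in the F test over the 4 lines, beside 93.3% of the 20820 genes tested. Against the mean of the other lines, T24 differed in 30 of 37 members (23 higher and 7 lower), beside 50.7% of all genes (27.9% higher and 22.8% lower). For 5637 there were 32 (17 higher and 15 lower), beside 57.0% (32.5% and 24.5%). For TCC-SUP there were 34 (25 higher and 9 lower), beside 61.3% (35.2% and 26.1%). For CLS-439 there were 30 (15 higher and 15 lower), beside 74.6% (40.4% and 34.2%). The mean of the others includes CLS-439 for T24, 5637 and TCC-SUP, and without that line the counts were 28, 22 and 28. Over the 29 members with reads in every untreated line the median log2 difference was 1.14 for T24 (-0.08 over all genes tested), 0.12 for 5637 (-0.04), 0.59 for TCC-SUP (-0.00) and 0.09 for CLS-439 (0.03). Folds of members with 0 reads in a line depend on the prior count of the fit, and for those the levels above are given in their place.

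With MMC, few members crossed the detection level, and the called members went both ways in T24, mostly upward in 5637 and TCC-SUP, and were absent in CLS-439. In T24, 7 of 37 members (18.9%) were called, beside 28.6% of all genes. Of these 2 were higher and 5 lower, beside 15.2% and 13.4% of all genes. In 5637, 10 of 37 (27.0%) were called, beside 29.4%, with 8 higher and 2 lower, beside 15.9% and 13.6%. In TCC-SUP, 6 of 37 (16.2%) were called, beside 20.7%, with 5 higher and 1 lower, beside 9.57% and 11.1%. CLS-439 had 0 called members, beside 0.620% of all genes. The share of called members was thus near or under that of all genes in each line, and the difference of these shares was not tested. The number of detected members was 25 with MMC and 26 without for T24. It was 24 with MMC and 21 without for 5637, 28 and 29 for TCC-SUP, and 21 and 20 for CLS-439. The members that crossed 1 FPKM were HOXD11 upward and HOXA13 and HOXD10 downward in T24, HOXA4, HOXD1 and HOXD8 upward in 5637, HOXD9 downward in TCC-SUP and HOXC9 upward in CLS-439. Of these, HOXD9 in TCC-SUP and HOXC9 in CLS-439 did not pass the edgeR test (adjusted p = 0.572 and 0.974), and their groups overlapped.

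**Figure D3:**
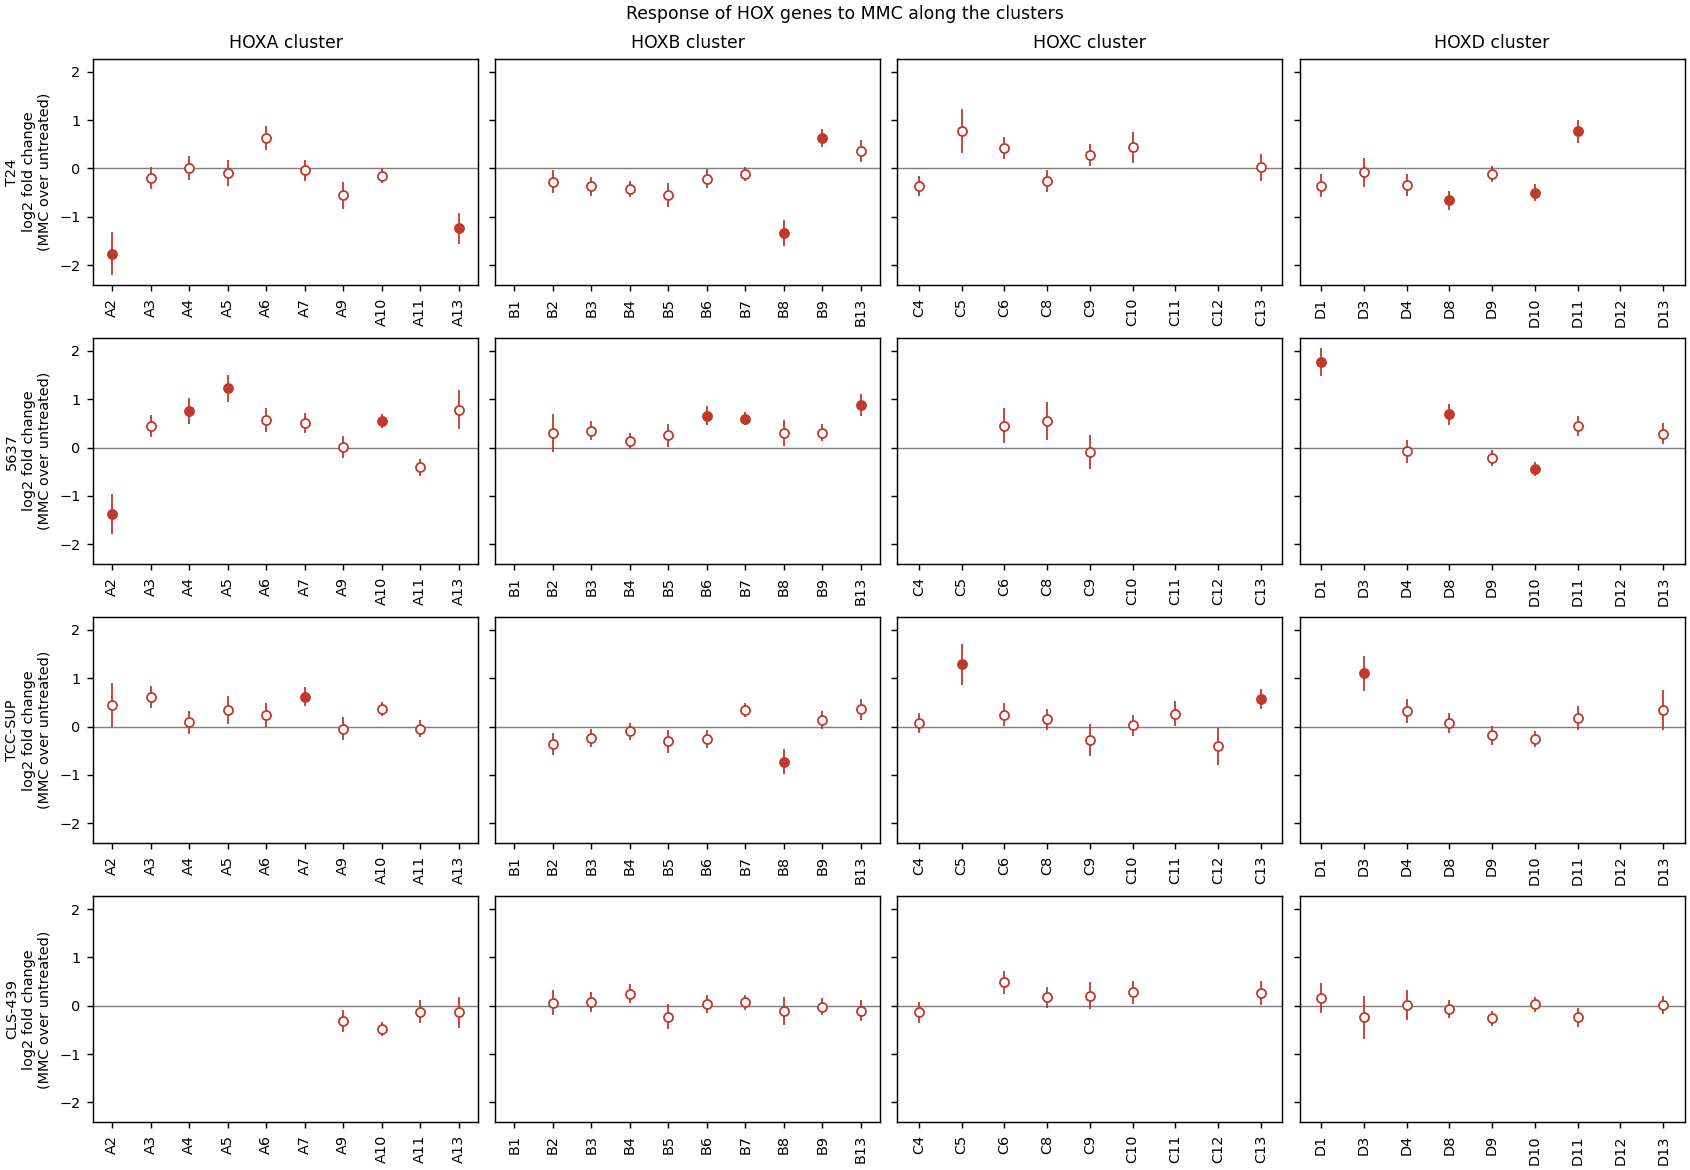
Log2 fold change of MMC over untreated for HOX genes along the clusters, with 1 row of panels per line and lines for the standard error. Filled points passed an adjusted p of 0.05, and genes under 0.1 FPKM in both groups of a line are left out. Filled points go both ways in T24, mostly upward in 5637 and TCC-SUP, and are missing in CLS-439.

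In T24, MMC lowered members at both ends of HOXA, HOXB8, and 2 HOXD genes, and raised HOXB9 and HOXD11. HOXB8 had 5.17, 3.37 and 2.48 FPKM in the MMC libraries, against 13, 8.8 and 6.18 FPKM in the untreated ones. All MMC libraries lay below all untreated ones, with a log2 fold change at -1.34 (SE 0.27, adjusted p = 0.000586). HOXA2, which patterns the hindbrain and the second pharyngeal arch, had 0.33, 0.167 and 0.142 FPKM with MMC, against 0.993, 0.632 and 0.522 FPKM without. These groups did not overlap, at a low level (-1.76, SE 0.44, adjusted p = 0.00476). HOXA13 had 0.756, 0.921 and 0.598 FPKM with MMC, against 2.19, 1.6 and 1.59 FPKM without, again with no overlap (-1.24, SE 0.32, adjusted p = 0.00536).

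HOXD8 and HOXD10 fell in T24 while HOXD11 beside them rose. HOXD8 had 3.32, 3.29 and 2.64 FPKM with MMC, against 5.69, 4.92 and 4.0 FPKM without (log2 fold change -0.66, SE 0.19, adjusted p = 0.0124). HOXD10 had 0.744, 0.845 and 0.704 FPKM with MMC, against 0.993, 1.19 and 1.08 FPKM without (-0.50, SE 0.18, adjusted p = 0.0387). Neither pair of groups overlapped. HOXD11, which shares 21.4% of its exon bases with HOXD10, had 1.1, 1.1 and 1.32 FPKM with MMC, against 0.569, 0.801 and 0.697 FPKM without (0.77, SE 0.24, adjusted p = 0.0184). HOXB9 had 18.6, 13.2 and 9.66 FPKM with MMC, against 10.4, 9.19 and 7.12 FPKM without. Its groups overlapped, with MMC replicate 4 under untreated replicate 1 (0.63, SE 0.18, adjusted p = 0.0101).

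HOXB8, HOXA2 and HOXA13 were called in T24 whichever single library was left out. HOXB9 lost its call without MMC replicate 1 (adjusted p = 0.0793) or untreated replicate 4 (0.0673), and HOXD8 without MMC replicate 4 (0.0737) or untreated replicate 1 (0.0591). For HOXD11 this held without MMC replicate 4 (0.0823), untreated replicate 1 (0.103) or untreated replicate 4 (0.0519). HOXD10 lost it without MMC replicate 1 (0.0933) or 4 (0.136) or untreated replicate 3 (0.133) or 4 (0.0871). The number of called members was 4 without MMC replicate 4, beside 20.9% of all genes. Over the 34 members with reads in both groups, the median log2 fold change was -0.14, against 0.00 over all genes tested.

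In 5637 the called members of HOXB rose, those of HOXA rose except for HOXA2, and those of HOXD went both ways. HOXD1 had the largest rise, with 1.14, 1.25 and 1.36 FPKM in the MMC libraries, against 0.386, 0.22 and 0.489 FPKM in the untreated ones. No libraries overlapped, and the log2 fold change was 1.76 (SE 0.29, adjusted p = 6.78e-05). HOXA5, a factor of lung and mammary epithelium, had 5.81, 8.17 and 6.93 FPKM with MMC, against 2.95, 2.57 and 3.37 FPKM without (1.23, SE 0.28, adjusted p = 0.00147). HOXB7, the most abundant member, had 36.7, 50.2 and 39.6 FPKM with MMC, against 28.3, 28.3 and 26.7 FPKM without (0.60, SE 0.14, adjusted p = 0.00244). In both genes all MMC libraries exceeded all untreated ones.

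Smaller rises in 5637 were spread over the clusters. HOXA10 had 5.91, 7.83 and 6.68 FPKM with MMC, against 4.44, 4.18 and 5.27 FPKM without (log2 fold change 0.55, SE 0.15, adjusted p = 0.00797). HOXA4 had 1.26, 1.64 and 0.897 FPKM with MMC, against 0.873, 0.636 and 0.737 FPKM without (0.76, SE 0.27, adjusted p = 0.0392). Its call was lost with the replicate number as a block (adjusted p = 0.0512). HOXB6 had 6.61, 10.5 and 10.4 FPKM with MMC, against 6.09, 5.4 and 5.86 FPKM without (0.66, SE 0.19, adjusted p = 0.0116). HOXB13 had 2.63, 4.7 and 2.92 FPKM with MMC, against 2.14, 1.66 and 1.76 FPKM without (0.88, SE 0.22, adjusted p = 0.00352). None of these groups overlapped.

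The remaining calls in 5637 were 1 rise and 2 falls. HOXD8 had 0.872, 1.51 and 1.44 FPKM with MMC, against 0.773, 0.716 and 0.874 FPKM without, with MMC replicate 1 just under untreated replicate 4 (log2 fold change 0.69, SE 0.22, adjusted p = 0.0201). HOXD10 had 11.8, 8.8 and 11.5 FPKM with MMC, against 13.7, 13.9 and 15.8 FPKM without (-0.44, SE 0.15, adjusted p = 0.0283). HOXA2 had 0.286, 0.382 and 0.329 FPKM with MMC, against 1.05, 0.688 and 0.879 FPKM without (-1.38, SE 0.41, adjusted p = 0.0141). In HOXD10 and HOXA2 the groups did not overlap. The HOXC genes stayed under 1 FPKM with MMC as without it.

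HOXD1, HOXA5 and HOXB7 were called in 5637 whichever single library was left out. HOXA2 lost its call without untreated replicate 1 (adjusted p = 0.0502), HOXB13 without MMC replicate 3 (0.0586), and HOXA10 without MMC replicate 3 (0.0632) or untreated replicate 3 (0.0595). HOXB6 lost it without MMC replicate 3 (0.0686) or 4 (0.0631) or untreated replicate 3 (0.0577), and HOXD10 without MMC replicate 3 (0.177) or untreated replicate 3 (0.0536) or 4 (0.122). For HOXD8 it was lost without MMC replicate 3 (0.119) or 4 (0.0861) or untreated replicate 1 (0.059) or 3 (0.0867), and for HOXA4 without MMC replicate 1 (0.0656) or 3 (0.224) or untreated replicate 3 (0.154) or 4 (0.104). Called members numbered 4 without MMC replicate 3 and 5 without untreated replicate 3, beside 20.7% and 21.6% of all genes. Over the 32 members with reads in both groups the median log2 fold change was 0.41, against 0.00 over all genes tested.

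In TCC-SUP, most called members rose and HOXB8 fell. HOXA7 had 12.5, 18.7 and 12.5 FPKM with MMC, against 9.16, 10 and 9.27 FPKM without (log2 fold change 0.62, SE 0.20, adjusted p = 0.0313). HOXC13 had 12.7, 14.1 and 11.4 FPKM with MMC, against 8.87, 7.64 and 9.1 FPKM without (0.57, SE 0.20, adjusted p = 0.0426). HOXB8 had 11.9, 10.6 and 9.87 FPKM with MMC, against 14.9, 23.2 and 15.7 FPKM without (-0.73, SE 0.26, adjusted p = 0.047). None of these groups overlapped, and untreated replicate 3 of HOXB8 stood above its other libraries.

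A pair of low members also rose in TCC-SUP. HOXC5 had 0.673, 1.54 and 0.611 FPKM with MMC, against 0.379, 0.376 and 0.395 FPKM without (log2 fold change 1.29, SE 0.42, adjusted p = 0.0335). HOXD3 had 0.224, 0.345 and 0.288 FPKM with MMC, against 0.116, 0.137 and 0.147 FPKM without (1.10, SE 0.36, adjusted p = 0.0313). Both lie mostly in exons shared with other genes of their strand. The median over the 37 members tested was 0.15, against 0.00 over all genes.

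The TCC-SUP calls of these members depended on single libraries. HOXA7 lost its call without MMC replicate 3 (adjusted p = 0.228) or untreated replicate 1 (0.0923), 3 (0.0538) or 4 (0.0806), and HOXC5 without MMC replicate 3 (0.307) or untreated replicate 1 (0.1), 3 (0.0924) or 4 (0.0888). HOXD3 lost it without MMC replicate 3 (0.139) or 4 (0.0711) or untreated replicate 1 (0.114), 3 (0.0758) or 4 (0.0638). HOXB8 lost it without MMC replicate 1 (0.0531), 3 (0.129) or 4 (0.142) or untreated replicate 3 (0.237) or 4 (0.0582). HOXC13 lost it without any 1 of the 6 libraries (0.0561 to 0.167). Called members numbered 1 without MMC replicate 3, untreated replicate 3 or untreated replicate 4, 2 without untreated replicate 1 and 3 without MMC replicate 4. In these runs 10.3% to 14.6% of all genes were called. Without the CLS-439 libraries in the fit, the calls of HOXA7 (0.059) and HOXB8 (0.0581) in TCC-SUP and of HOXD10 in T24 (0.0522) were lost.

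In CLS-439 no member was called. At an unadjusted p under 0.05 edgeR listed 2 members and DESeq2 also 2, and edgeR called 1 member, a fall, when it was fitted to this line alone, beside 4.16% of all genes. HOXA10 had 6.37, 5.55 and 5.73 FPKM with MMC, against 9.01, 7.7 and 7.89 FPKM without, and these groups did not overlap (log2 fold change -0.48, SE 0.15, edgeR adjusted p = 0.237). HOXC6 had 7.59, 9.94 and 9.83 FPKM with MMC, against 6.04, 7.06 and 6.52 FPKM without (0.48, SE 0.23, adjusted p = 0.619). Neither passed the adjusted test. Among the highest members, HOXB9 averaged 22.4 FPKM with MMC and 22.6 FPKM without, and HOXD13 had 10.1, 11.4 and 10.4 FPKM, against 11.2, 10.4 and 9.89 FPKM. Over the 33 members with reads in both groups the median was 0.02, against 0.00 over all genes.

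A test of the difference itself found that 5 of 37 members responded unequally among the lines, beside 16.0% of all genes. They were HOXD1 (adjusted p = 0.00327), HOXA10 (0.0055), HOXD8 (0.0161), HOXB8 (0.0164) and HOXA13 (0.0346). HOXD8 was lower with MMC in T24 (log2 fold change -0.66) and higher in 5637 (0.69). HOXD1 was higher in 5637 (1.76), with -0.36 in T24, -0.12 in TCC-SUP and 0.16 in CLS-439, which did not pass the main edgeR test. HOXB8 fell in T24 and TCC-SUP, with 0.30 in 5637 and -0.11 in CLS-439, which did not pass it. HOXA10 rose in 5637 (0.55), with -0.15 in T24, 0.36 in TCC-SUP and -0.48 in CLS-439, which did not pass it. HOXA13 fell in T24 (-1.24), with 0.78 in 5637 and -0.14 in CLS-439, which did not pass it. Without the CLS-439 libraries HOXA10 (adjusted p = 0.146) and HOXA13 (0.081) lost this call. Without all libraries numbered 3, or all numbered 4, the call was made for 0 members (beside 3.05% and 0.448% of all genes), and without those numbered 1 for 10 (beside 24.1%). For HOXA2, which fell in T24 and 5637, and HOXA5, which rose in 5637, the test of unequal responses was not passed (adjusted p = 0.068 and 0.0507).

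The cluster sums were given no test. In 5637 the HOXB sum was 89.9, 116 and 102 FPKM with MMC, against 78.9, 70.6 and 74.8 FPKM without, and the groups did not overlap. The HOXA sum of TCC-SUP was 54.8, 71.2 and 55.8 FPKM with MMC, against 49.5, 47.5 and 46.7 FPKM without, and its HOXC sum was 43.9, 44.4 and 38.0 FPKM, against 36.2, 32.4 and 37.6 FPKM. The HOXD sum of T24 was 13.7, 13.4 and 13 FPKM with MMC, against 17.9, 16.9 and 14.6 FPKM without, and the HOXA sum of CLS-439 was 12.7, 11.8 and 11.2 FPKM, against 16.8, 14.3 and 15.0 FPKM. In each of these sums the libraries of both groups were separate, but an exact permutation test of 3 against 3 libraries cannot go below p = 0.1. They were picked for this from the sums of all 4 clusters in all 4 lines. Other sums overlapped, among them HOXA, HOXB and HOXC of T24 and HOXB, HOXC and HOXD of CLS-439. As shares of all HOX FPKM, HOXB had 63.3 ± 2.98% with MMC and 65.1 ± 0.899% without for T24 (SD, n = 3 each). The same shares were 55.2 ± 0.29% with MMC and 50.5 ± 1.64% without for 5637, 46.8 ± 0.547% and 53.0 ± 2.90% for TCC-SUP, and 37.0 ± 1.45% and 36.3 ± 0.139% for CLS-439.

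**Figure D4:**
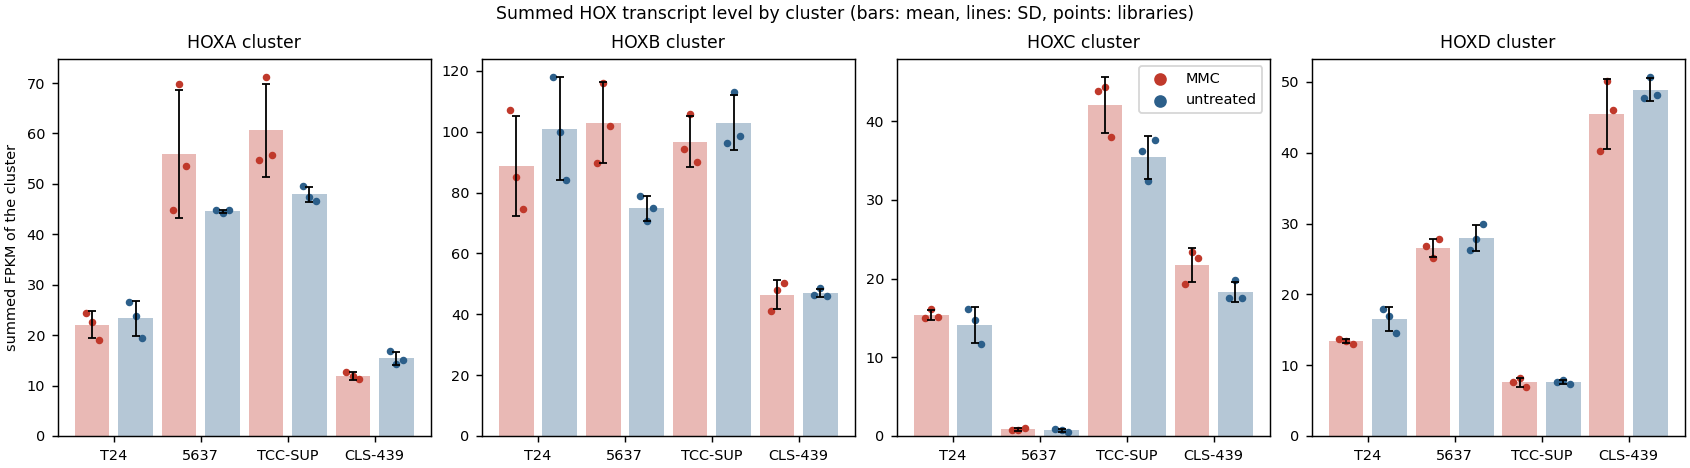
Summed FPKM of the HOX genes of each cluster by line, with MMC left of untreated, bars for the mean of 3 libraries, lines for the SD and points for libraries. HOXC of 5637 is near 0 in both groups (0.84 and 0.738 FPKM), and HOXD of CLS-439 (45.5 and 48.9 FPKM) is above HOXD of the other lines.

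Noncoding RNAs of the clusters were followed through a list of 19, of which 15 could be tested. MMC raised 1 and lowered 2 in T24, raised 6 in 5637, raised 1 and lowered 2 in TCC-SUP and lowered 1 in CLS-439. Of all genes tested, 15.2%, 15.9%, 9.57% and 0.298% rose in these lines, and 13.4%, 13.6%, 11.1% and 0.322% fell. The difference of the shares was not tested. The median log2 fold change of the listed RNAs with reads was 0.01, 0.91, -0.08 and 0.09 in the 4 lines. HOTTIP, which lies beyond HOXA13 and is known to act on the 5′ HOXA genes, had 0.298, 0.259 and 0.147 FPKM with MMC, against 0.876, 0.638 and 0.415 FPKM without in T24 (log2 fold change -1.45, SE 0.39, adjusted p = 0.00754). In 5637 HOXC-AS2 rose by 2.20 on the log2 scale (SE 0.72), to 0.179 FPKM with MMC, against 0.0368 FPKM without, and HOXB-AS3 by 2.07 (SE 0.72), to 0.184 FPKM, against 0.0409 FPKM.

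Several of these RNAs were chosen after their values were seen. HOTAIRM1, at the 3′ end of the HOXA cluster, had 2.13, 1.76 and 1.47 FPKM with MMC, against 4.09, 3.21 and 2.88 FPKM without in T24 (log2 fold change -0.92, SE 0.22, adjusted p = 0.00284), and fell by 0.59 on the log2 scale in TCC-SUP (SE 0.20, adjusted p = 0.036). HAGLROS, in the HOXD cluster beside HOXD1, had 10.9, 9.1 and 11.8 FPKM with MMC, against 4.4, 4.39 and 4.31 FPKM without in 5637 (1.28, SE 0.30, adjusted p = 0.00229). HOXA10-AS had 0.567, 0.736 and 0.998 FPKM with MMC, against 1.75, 2.16 and 1.43 FPKM without in CLS-439 (-1.19, SE 0.24, adjusted p = 0.0163). HOTAIR, a HOXC transcript known to act with Polycomb complexes, had 3.0, 2.95 and 3.0 FPKM with MMC and 2.38, 1.84 and 2.06 FPKM without in TCC-SUP and reached at most 0.144 FPKM in the libraries of the other lines.

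Cofactors and regulators were given by list, and their counts stand beside the shares of all genes called in each line, 28.6% in T24, 29.4% in 5637, 20.7% in TCC-SUP and 0.620% for CLS-439. Of 8 tested PBX, MEIS and PKNOX cofactors, 2 rose and 1 fell in T24, 1 rose and 2 fell in 5637, 4 fell in TCC-SUP and none was called in CLS-439. The median log2 fold change of those with reads was -0.22, -0.08, -0.59 and -0.08. MEIS3 rose by 3.31 (SE 0.30) in 5637 and by 2.40 (SE 0.30) in T24, and MEIS2 fell by 1.39 on the log2 scale in TCC-SUP (SE 0.18).

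Of 19 Polycomb genes, 4 rose and 5 fell in T24, 4 rose and 3 fell in 5637, 2 rose and 2 fell in TCC-SUP and none was called in CLS-439, with medians between -0.01 and 0.09. JARID2, a subunit that helps to recruit PRC2, fell by 1.06 in T24, by 1.34 in 5637 and by 1.62 in TCC-SUP on the log2 scale (SE 0.30, 0.29 and 0.30). EZH2, the PRC2 methyltransferase, rose by 0.56 in T24 and by 0.89 in 5637 (SE 0.15 each). Of 11 Trithorax and H3K27 demethylase genes, 5 rose and 1 fell in T24, 3 rose in 5637, and 2 rose and 1 fell in TCC-SUP, with no call in CLS-439 and medians between -0.02 and 0.15. KDM6B, an H3K27 demethylase, averaged 9.7 FPKM with MMC and 1.47 FPKM without in T24 (log2 fold change 2.72, SE 0.22, adjusted p = 2.54e-09). KDM6A rose by 1.09 (SE 0.17) and RBBP5 by 0.86 (SE 0.20) in T24.

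Among 11 tested upstream regulators, 1 rose in T24, 2 rose and 1 fell in 5637, 3 rose and 3 fell in TCC-SUP and 1 rose in CLS-439, with medians of 0.13, 0.20, -0.03 and -0.07 over those with reads. CYP26B1, which degrades retinoic acid, rose in all 4 lines, by 0.90 (SE 0.21), 1.88 (SE 0.22), 0.66 (SE 0.20) and 2.16 (SE 0.40), the last at 0.218 FPKM with MMC and 0.0496 FPKM without. RXRA, a receptor partner in retinoic acid signalling, fell by 1.81 in 5637 (SE 0.40) and by 1.42 in TCC-SUP (SE 0.39) on the log2 scale. CYP26A1 was called in TCC-SUP at 0.0293 FPKM with MMC, against no read without.

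Genes beside the clusters and other homeobox genes of the same class gave a comparison. Of 10 tested neighbours, 4 fell in T24, 1 rose and 1 fell in 5637, 3 fell in TCC-SUP and none was called in CLS-439. Their medians over those with reads in both groups were -0.10, -0.17, -0.18 and 0.08. HIBADH, a valine-catabolic enzyme gene beyond HOXA13, fell by 0.60, 0.78 and 0.53 on the log2 scale in T24, 5637 and TCC-SUP (SE 0.14 each). SKAP2, beyond the 3′ end of HOXA, fell by 1.04 in T24 and by 0.92 in TCC-SUP (SE 0.26 each), and SKAP1, near HOXB, fell by 2.01 in TCC-SUP (SE 0.39). SKAP1 was also called lower in T24 (adjusted p = 0.0122), at 0.00681 FPKM with MMC and 0.0856 FPKM without. Of 13 tested ParaHox and other ANTP-class genes, 7 rose in 5637, 5 in T24, 3 in TCC-SUP and 0 in CLS-439. Of all genes tested, 15.9%, 15.2%, 9.57% and 0.298% rose in these lines, and the difference of the shares was not tested. None of the 13 fell, beside 13.6%, 13.4%, 11.1% and 0.322% of all genes in the same order. The medians over those with reads in both groups were 0.92, 0.93, 0.98 and 0.19 in that order. Over all 13 tested they were 0.71, 0.84, 0.78 and 0.19. DLX3, an epidermal and tooth factor, averaged 0.393 FPKM with MMC and 0.0245 FPKM without in T24 (log2 fold change 3.89, SE 0.69, adjusted p = 0.00015). MNX1 rose by 2.13 in 5637 (SE 0.32) and EN2 by 2.07 in TCC-SUP (SE 0.44).

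Some markers of cell type were also called after MMC. Of 15 tested urothelial and epithelial markers, 4 fell in T24, 6 fell and 1 rose in 5637, 4 fell in TCC-SUP and none was called in CLS-439. Of all genes tested, 28.6%, 29.4%, 20.7% and 0.620% were called in these lines. The difference of the shares was not tested for any list of markers. Of 9 fibroblast and mesenchymal markers, COL1A1 rose in T24 and in 5637, and COL1A1 and COL1A2 fell in TCC-SUP. Of 3 tested immune markers CD14 rose in 5637 and PTPRC fell in TCC-SUP, and of 5 endothelial markers TEK fell in TCC-SUP. Their part in the HOX values was not tested.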

How the data were processed

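RNA of 24 libraries was sequenced after a stranded mRNA preparation, per the labels' protocols. The deposited values are whole-number counts of reads per gene, which the authors made with STAR 2.5.3a and featureCounts 1.6.2 on GRCh38, per the submitters' processing notes. The sources used here do not give the annotation release, strand setting or handling of multiply mapped reads. Groups were taken from the labels, in which the treatment tag MCC was read as MMC. Gene names and exon lengths came from GENCODE 29, which matched 58216 of 58381 IDs.

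Counts were fitted over all 24 libraries with edgeR 4.0.16 (R 4.3.3; filterByExpr, TMM, robust quasi-likelihood F tests, 16 residual degrees of freedom), and p-values were adjusted by Benjamini-Hochberg over 20820 genes, with a threshold of 0.05. The filtered genes held 99.94% of reads. DESeq2 1.42.0, other filters and scalings, a replicate block and left-out libraries were alternatives, and the fit was tested on simulated data. No libraries of a group agreed within sampling noise (lowest chi-square per gene 4.1). Same-numbered MMC and untreated libraries deviated together in 5637 (correlations 0.42, 0.24 and 0.68) and CLS-439 (0.45, 0.41 and 0.18). In T24 (0.53, -0.37 and 0.6) and TCC-SUP (0.042, -0.066 and -0.4) not every correlation was above 0.1. The main fit paired no libraries in any line, and the replicate block was an alternative run only. The main p-values for 5637 and CLS-439 thus leave out that shared deviation.

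All 39 members may be named, with library values for those at 10 FPKM or more in a group or called after MMC. Of each list at most 3 called genes with the largest change are named, and others are said to be chosen later. Members and lists were chosen with earlier results of these data known. Of 140 listed genes, 1 had no match. A few items, counted in the totals, are not reported here.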

Additional observations from a re-analysis of the deposited data

Results flagged for a closer look

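Responses to MMC differed among the 4 lines, by the edgeR interaction test, for HOXA10 (adjusted p = 0.0055), HOXA13 (adjusted p = 0.0346), HOXB8 (adjusted p = 0.0164), HOXD1 (adjusted p = 0.00327) and HOXD8 (adjusted p = 0.0161). HOXD8 fell by 0.66 on the log2 scale in T24 and rose by 0.69 in 5637, and it is the member called in both directions. HOXD1 rose by 1.76 in 5637, where its antisense overlap covers 58.1% of its exon bases. HAGLR, chosen after its values were seen, is an antisense RNA whose bounds overlap HOXD1. It also rose in 5637, to 6.69 FPKM with MMC against 3.96 FPKM without (log2 fold change 0.76, SE 0.22, edgeR adjusted p = 0.00937). The part of HAGLR reads in the HOXD1 value was not tested. HOXB8 fell by 1.34 in T24 and by 0.73 in TCC-SUP.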

How the results depend on the processing

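No direction reversed under any alternative run. Of the values for single genes, 257 kept their side of the threshold and 128 lost the call. The call of HOXB8 in T24 and that of HOXD1 in 5637 held in every setting. For T24, called members numbered 4 with only the groups compared, 4 to 9 when 1 library was left out and 1 to 11 when a replicate number was left out of all groups. For 5637 they numbered 6 with no filter, 4 to 13 and 1 to 14 in the same order, for TCC-SUP 1 to 4 and 0 to 8, and for CLS-439 1 with only the groups compared and 0 whichever library was left out. The share of all genes called also moved. With a replicate number left out it was 7.50% to 34.3% in T24, 9.02% to 36.2% in 5637 and 1.30% to 29.5% in TCC-SUP. With 1 library left out it was 20.9% to 32.5% in T24, 20.7% to 32.5% in 5637 and 10.3% to 23.2% in TCC-SUP. It was 24.5% for T24 and 4.16% for CLS-439 with only the groups compared, and 15.7% for 5637 with no filter. Members with unequal responses numbered 10 with DESeq2, 8 with no filter, 10 with the replicate block and 0 to 10 when a replicate number was left out. Beside them stood 23.2%, 10.5%, 18.8% and 0.448% to 24.1% of all genes. With the replicate block, called members numbered 0 in CLS-439 (beside 0.903% of all genes), 7 in TCC-SUP (23.8%) and 10 each in 5637 (32.3%) and T24 (30.9%). It ended the call of HOXA4 in 5637 and no other call of a member there. Untreated counts were 28 to 31 (T24), 29 to 32 (5637), 32 to 34 (TCC-SUP) and 30 (CLS-439) with 1 library left out, and 28 to 29, 28 to 29, 30 to 34 and 29 to 30 with a replicate number left out of all groups. Detection thresholds of 0.5 and 2 FPKM, and exon bases not shared with other genes, a setting chosen after seeing the data, kept detected counts within 1.5 times. The cause of these shifts was not tested. Depth limits members with few reads, mostly HOXC in 5637 and the 3′ HOXA genes in CLS-439.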
